A study of Homo sapiens with 6 samples.

Results

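The plasminogen activator system was examined in U87 cells through 8 genes, of 60612 in the deposited table. They were chosen by name, as the plasminogen activators PLAU and PLAT, the urokinase receptor PLAUR, the serpin inhibitors SERPINB2, SERPINE2 and SERPINB8, and the plasminogen-binding pair ANXA2 and S100A10. Each symbol matched a single Ensembl identifier. The set was drawn up with results of this comparison known, so the differences of the 8 genes between the groups are given as a description. Their calls in the fit across all genes are counted, but no p-value is given for them.

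U87 is an established human glioblastoma line. RNA was sequenced from 3 libraries of cells given a scramble shRNA (NC) and from 3 libraries of cells given an shRNA against PRMT6 (shPRMT6), an arginine methyltransferase of histones. All 6 libraries come from cells that received an shRNA lentivirus with polybrene, and none from untreated cells. The methods call the cultures independent replicates. The shRNA that was sequenced is not named, and the labels do not say whether the cells were a pool or a clone.

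Plasminogen activators cleave the zymogen plasminogen to plasmin, a protease that degrades fibrin and, directly or through other proteases, extracellular matrix. Urokinase, the product of PLAU, acts while bound to its receptor at the cell surface, and tissue-type activator, the product of PLAT, acts mainly on fibrin or on surfaces that carry plasminogen receptors. Serpins hold both activators in check by trapping them in a covalent complex. In gliomas the system is known for its part in invasion through brain tissue.

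The promoter window of SERPINB2 is shown because this gene differed most between the groups, and that of ANXA2 because it holds matches to both motifs searched. Sequences are RefSeq windows on GRCh38.p14, written 5′ to 3′ on the strand of the gene, and stop at the next annotated exon of the gene. Capitals mark matches to the AP-1 motif TGANTCA or the SP1 motif GGGCGG, searched on both strands. SERPINB2 lies on the plus strand (chr18:63887455-63887699) and ANXA2 on the minus strand (chr15:60398044-60398236).
SERPINB2: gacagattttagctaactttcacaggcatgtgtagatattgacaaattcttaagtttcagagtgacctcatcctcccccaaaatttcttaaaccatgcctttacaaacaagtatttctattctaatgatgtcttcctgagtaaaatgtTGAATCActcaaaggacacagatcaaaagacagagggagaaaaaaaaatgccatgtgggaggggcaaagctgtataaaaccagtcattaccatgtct
ANXA2: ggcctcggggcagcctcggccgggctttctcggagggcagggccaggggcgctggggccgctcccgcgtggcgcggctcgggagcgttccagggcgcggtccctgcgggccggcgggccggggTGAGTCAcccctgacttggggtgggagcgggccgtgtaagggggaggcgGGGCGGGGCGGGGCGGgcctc

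The AP-1 motif also lay in the windows of PLAUR and SERPINB8, which lie wholly or in part within annotated exons and are therefore shown only as the match with 11 bases on each side. The PLAUR match is on the minus strand (chr19:43670338-43670366). The SERPINB8 matches are on the plus strand, the upstream one at chr18:63969885-63969913 and the one nearer the start at chr18:63970042-63970070.
PLAUR: tcacaactccaTGAGTCAgggccgagcca
SERPINB8, upstream: ggagtcaaacgTGAATCAacggtgaaaaa
SERPINB8, near the start: tcgaacggttcTGAGTCAtctgccggaag

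Windows of 250 bases before to 50 bases after a transcript start were found for 7 of the 8 genes, 9 windows in all. The AP-1 motif began 102 bases before the start of SERPINB2, 186 before that of PLAUR, 127 before that of ANXA2, and 185 and 28 before that of SERPINB8. Of all 35116 windows, 7.71% held it, and of all 27305 genes with a window, 9.37% did. The SP1 motif lay in windows of S100A10, SERPINE2, PLAU and ANXA2, in 45.0% of all windows, and in those of 48.3% of all genes. The genes with an AP-1 match included SERPINB2 and PLAUR, which were lower in shPRMT6, and ANXA2, which was higher. A match describes letters in a window and is not a measured binding site.

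**Figure D1:**
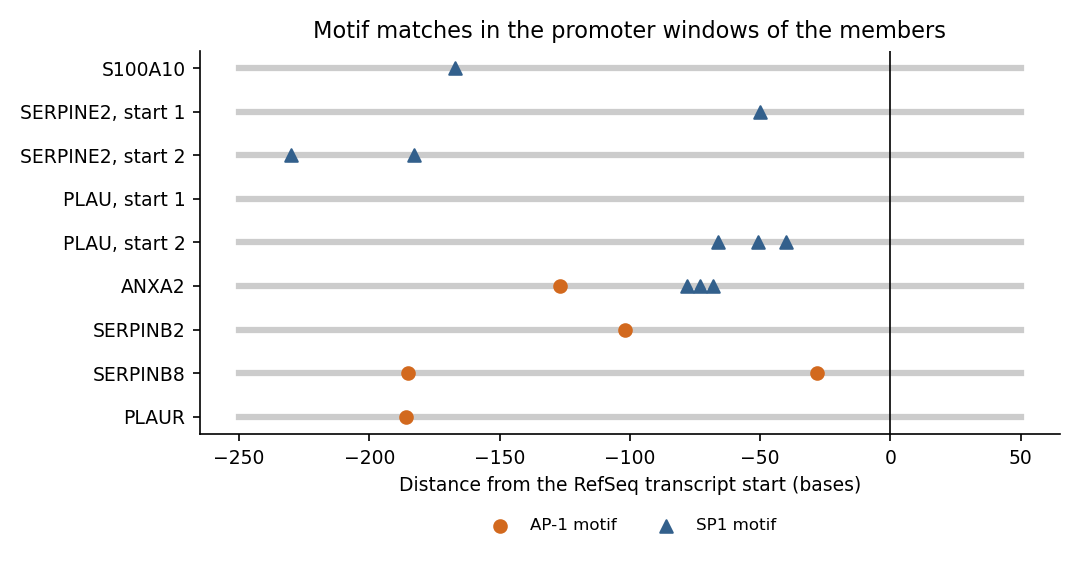
Matches to the AP-1 and SP1 motifs in the promoter windows, by distance in bases from the RefSeq transcript start (0, vertical line). Each line is a window, and the AP-1 match of SERPINB2 sits 102 bases before the start.

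The counts summed to between 56388161 and 75887696 per library in NC and between 61805330 and 67630740 in shPRMT6. PRMT6 had 522, 606 and 449 counts in NC 1, NC 2 and NC 3 and 227, 282 and 355 counts in the corresponding shPRMT6 libraries, without overlap. Its log2 fold change was -0.87 (SE 0.187, adjusted p = 0.0225, edgeR quasi-likelihood test over 18106 genes). The adjusted p became 0.0613 without NC 1, 0.0588 without shPRMT6 1, and 0.0713 without shPRMT6 2. Of 9 glial and glioma markers, VIM, TNC, CD44, NES and OLIG2 were above 1 CPM (counts scaled to library size, after TMM scaling). SOX2 was at most 0.408 CPM. The 9 markers summed to 10705 to 11759 CPM in NC and to 9862 to 10621 CPM in shPRMT6. VIM made up most of this sum, with 7300 to 8427 CPM in NC and 7090 to 7897 CPM in shPRMT6. S100B and AQP4, which mark astrocytes, had 0 counts in every library, which allows up to 3 counts or 0.0536 CPM, and GFAP was at most 0.886 CPM. Of 9 markers of other cells, only SNAP25 and PECAM1 were above 1 CPM, and the list summed to 22.1 to 24.7 CPM in NC and 23.9 to 25.2 CPM in shPRMT6. TNC was lower in shPRMT6 (2111 to 2203 CPM against 2640 to 2905), and NES (45.1 to 45.7 CPM against 38.3 to 42.9) and PECAM1 (3.66 to 5.23 CPM against 2.55 to 3.24) were higher, each without overlap. The part of these levels in the results below was not tested.

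All 8 genes passed the filter on low counts. Of all 18106 genes tested, 18.6% had an adjusted p under 0.05, 9.06% as lower and 9.51% as higher in shPRMT6. Of the 8 genes, 6 did, 2 as lower (SERPINB2, PLAUR) and 4 as higher (PLAT, ANXA2, S100A10, PLAU). The same 6 genes had no overlap between the groups, as had 40.2% of all genes tested. Only SERPINB2 passed the threshold of the study's methods, a log2 fold change beyond 1 in size with an unadjusted p under 0.05, as did 5.92% of all genes. The median log2 fold change was 0.22 over the 8 genes and -0.01 over all genes tested. Since the genes were chosen with this comparison known, nothing is read from these counts.

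**Figure D2:**
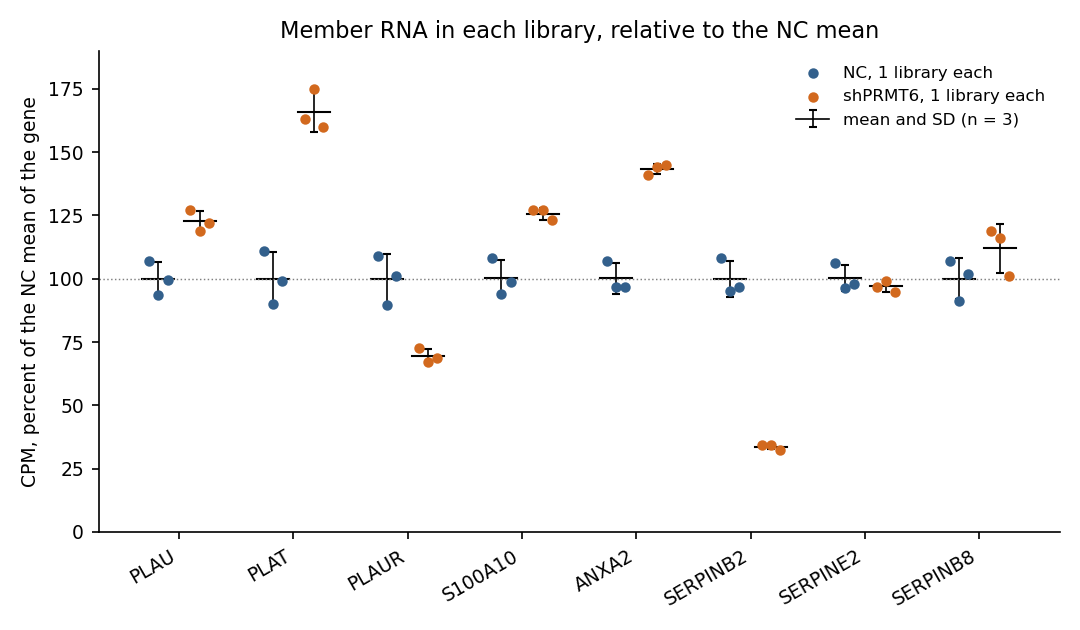
CPM of the 8 genes in each library, as a percent of the NC mean of the gene, with bars for the mean and SD of 3 libraries. SERPINB2 sits between 32.5% and 34.4% in shPRMT6 and PLAT between 160% and 175%.

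SERPINB2 encodes plasminogen activator inhibitor type 2, a serpin of urokinase and tissue-type activator that is found largely inside the cell. It had 716, 630 and 640 CPM in NC 1, NC 2 and NC 3, and 227, 227 and 215 CPM in shPRMT6 1, shPRMT6 2 and shPRMT6 3, the order used for every gene here. Every shPRMT6 library was below every NC library, and the shPRMT6 libraries lay close together (CV 3.18%, against 7.10% in NC). The mean in shPRMT6 was 33.7% of that in NC, a log2 fold change of -1.57 (SE 0.0677). Of the 18106 genes tested, 276 had a lower fold change. In bulk RNA, fewer cells of a type and less RNA per cell cannot be told apart.

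The gene lies in a cluster of clade B serpins on chromosome 18 (GRCh38, chr18:63871692-63903890, plus strand). Its exons overlap those of SERPINB10, on the same strand, over 547 bases, 19.9% of its exonic length. Of its 75-base exonic stretches, 17.4% also occur in SERPINB10. SERPINB10 itself held 0, 11 and 0 counts in NC and 0, 0 and 27 in shPRMT6, against at least 13973 for SERPINB2 in every library.

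Among the other SERPINB genes of the cluster, SERPINB7 (megsin) and SERPINB8 were the ones above 2 CPM. SERPINB7 had 13.5, 12.3 and 11.4 CPM in NC and 8.26, 6.29 and 6.79 CPM in shPRMT6, without overlap, and fell by 0.80 on the log2 scale (SE 0.142, adjusted p = 0.0116, edgeR). Without shPRMT6 3 its adjusted p was 0.0505. SERPINB4 stayed between 0.763 and 1.18 CPM in all 6 libraries. SERPINB3, SERPINB5, SERPINB11, SERPINB12 and SERPINB13 had at most 14 counts in any library.

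SERPINB8, at the far end of the cluster (chr18:63969925-64019779, plus strand), encodes an intracellular serpin that can inhibit furin. It had 36.3, 31.0 and 34.9 CPM in NC and 40.5, 39.4 and 34.3 CPM in shPRMT6. The third shPRMT6 library fell within the NC range, so the groups overlapped. The log2 fold change was 0.16 (SE 0.101). Its exons share 370 bases with HMSD, which was at most 3.49 CPM.

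SERPINE2 encodes protease nexin-1, a secreted inhibitor of thrombin, urokinase and plasmin (chr2:223975112-224039319, minus strand). It had 272, 249 and 253 CPM in NC and 250, 256 and 245 CPM in shPRMT6. The ranges overlapped, and the means differed by less than the SD of the NC libraries (258 ± 12.7 and 250 ± 5.59 CPM, SD, n = 3). On the log2 scale the difference was -0.04 (SE 0.0574). The 3 serpins of the set did not share a direction.

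PLAUR encodes the urokinase receptor, which is anchored to the membrane by a lipid (chr19:43646095-43670547, minus strand). It had 485, 398 and 448 CPM in NC and 322, 297 and 305 CPM in shPRMT6. Its lowest NC library was above its highest shPRMT6 library. The mean in shPRMT6 was 69.5% of that in NC, a log2 fold change of -0.52 (SE 0.0825).

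PLAU encodes urokinase, the ligand of that receptor (chr10:73909177-73917497, plus strand). It had 140, 123 and 131 CPM in NC and 167, 157 and 160 CPM in shPRMT6. The groups did not overlap, and the direction was opposite to that of its receptor. The log2 fold change was 0.29 (SE 0.0677). Its exons overlap those of C10orf55 on the opposite strand over 916 bases, 31.1% of its exonic length, and the use of strand in counting is not given in the sources used here. C10orf55 held 40 to 57 counts per library, against 7852 to 10820 for PLAU.

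PLAT encodes tissue-type plasminogen activator (chr8:42175233-42207724, minus strand). It had 22.7, 18.3 and 20.2 CPM in NC and 33.2, 35.6 and 32.7 CPM in shPRMT6. All shPRMT6 libraries were above all NC libraries, and the log2 fold change of 0.73 (SE 0.102) was the largest upward value of the 8 genes. The mean in shPRMT6 was 166% of that in NC.

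ANXA2 encodes annexin A2, a phospholipid-binding protein that serves as a co-receptor for plasminogen and tissue-type activator (chr15:60347134-60402883, minus strand). It had 1713, 1552 and 1553 CPM in NC and 2260, 2320 and 2331 CPM in shPRMT6, without overlap. The log2 fold change was 0.52 (SE 0.0544). Of its 75-base exonic stretches, 4.10% also occur in the processed pseudogene ANXA2P2 on chromosome 9, which had 121, 113 and 118 CPM in NC and 163, 155 and 151 CPM in shPRMT6.

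S100A10 encodes p11, which binds annexin A2 and carries the lysine end that plasminogen docks to (chr1:151982915-151994390, minus strand). It had 791, 692 and 724 CPM in NC and 933, 936 and 903 CPM in shPRMT6. The groups did not overlap, and the direction was that of ANXA2. The log2 fold change was 0.33 (SE 0.0620).

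Among the NC libraries, all 8 genes were lowest in NC 2, the most deeply sequenced, and highest in NC 1. Over the 10042 genes with a mean of at least 8 CPM, NC 2 was the lowest NC library for 36.3% and NC 1 the highest for 35.6%. Leaving out each library in turn moved the log2 fold changes of SERPINB2 between -1.60 and -1.51, of PLAUR between -0.60 and -0.46, of PLAT between 0.66 and 0.81 and of ANXA2 between 0.50 and 0.57. Those of PLAU ran from 0.25 to 0.34 and those of S100A10 from 0.29 to 0.38. An adjusted p under 0.05 was lost by PLAU without NC 3 or without any single shPRMT6 library, and by S100A10 without NC 3, shPRMT6 1 or shPRMT6 2, which left between 4 and 6 of the 8 genes past it.

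Levels of different genes were compared per length, on the deposited FPKM scale. S100A10 was the most abundant in NC, at 612 ± 38.4 FPKM (SD, n = 3), followed by SERPINB2 at 203 ± 12.8 and ANXA2 at 153 ± 7.50 FPKM. PLAUR stood at 83.7 ± 7.88, PLAU at 37.5 ± 2.29 and SERPINE2 at 24.2 ± 1.02 FPKM. SERPINB8 at 4.96 ± 0.390 and PLAT at 2.42 ± 0.243 FPKM were the lowest. No neighbours in this order overlapped in range over the 3 libraries.

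In shPRMT6, S100A10 was again the highest at 773 ± 14.3 FPKM, but ANXA2 at 221 ± 3.82 FPKM now stood above SERPINB2 at 68.9 ± 2.08 FPKM. PLAUR at 58.5 ± 2.48, PLAU at 46.2 ± 1.48, SERPINE2 at 23.6 ± 0.490, SERPINB8 at 5.58 ± 0.481 and PLAT at 4.04 ± 0.18 FPKM kept their places. No neighbours overlapped in this group either, and the order was the same with CPM divided by exonic length. That length covers the exons of every annotated transcript, so this check cannot show whether it suits the transcripts made here. In CPM, ANXA2 stood above SERPINB2 in both groups (1606 against 662 in NC, 2303 against 223 in shPRMT6). Their order in NC thus depends on the length used. SERPINE2 likewise stood above PLAU in CPM in both groups (258 against 131 in NC, 250 against 161 in shPRMT6). In shPRMT6, PLAUR at 308 CPM and SERPINE2 at 250 CPM also stood above SERPINB2 at 223 CPM. These places in the FPKM order depend on the length as well.

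**Figure D3:**
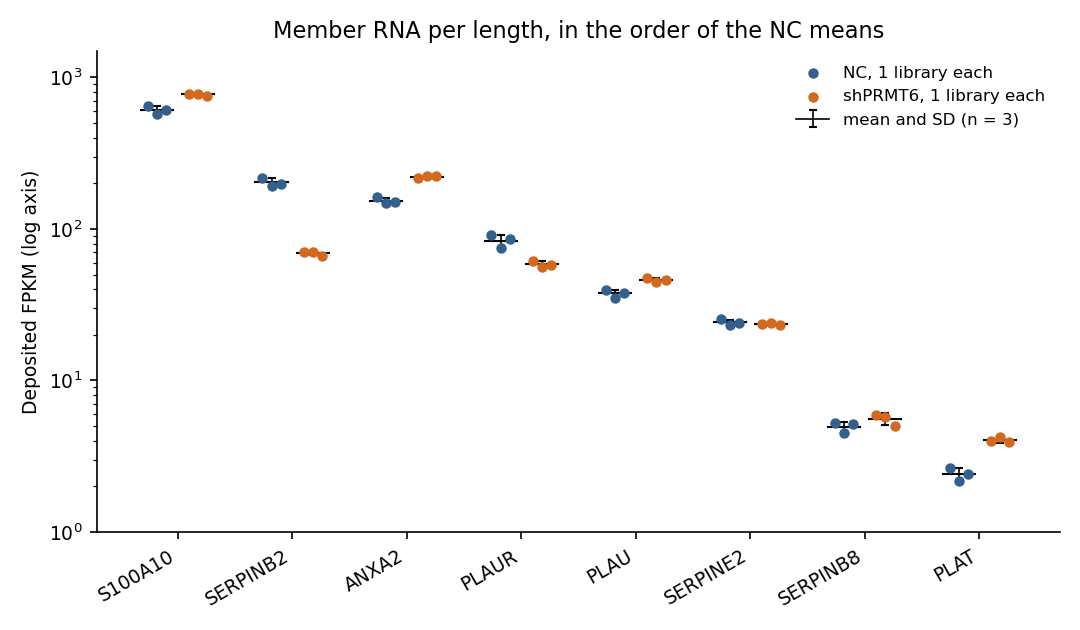
Deposited FPKM of the 8 genes in each library on a log axis, in the order of the NC means, with bars for mean and SD of 3 libraries. On this scale SERPINB2 drops from the second to the third place, from 203 to 68.9 FPKM, and the order of the other genes is kept.

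Inhibitor, receptor and activator RNA were also set against each other within each library. The ratio of SERPINB2 to PLAU in FPKM was 5.48, 5.51 and 5.27 in NC and 1.47, 1.56 and 1.45 in shPRMT6. The ratio of PLAUR to PLAU was 2.23 ± 0.0785 in NC and 1.27 ± 0.0132 in shPRMT6 (SD, n = 3). The ratio of PLAU to PLAT was 15.6 ± 0.616 and 11.5 ± 0.783, so urokinase RNA stayed the more abundant activator RNA per length in both groups. In FPKM, S100A10 exceeded its partner ANXA2 by a ratio of 3.99 ± 0.0952 in NC and 3.50 ± 0.113 in shPRMT6. In CPM, without division by length, ANXA2 was the higher (1606 against 736 in NC, 2303 against 924 in shPRMT6). Which of them leads thus depends on the length used, with 8824 annotated exonic bases for ANXA2 and 1543 for S100A10. The ratios are of RNA and say nothing of protein.

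Other genes of the pathway were taken from a list by role. It also held genes outside the pathway, such as the relatives LYPD1 and LYPD6, and TNFRSF11B. This list and those below were chosen with earlier results of these data known, so their shares past the threshold are a description. Of 36 listed, 27 were tested, and 9 passed an adjusted p of 0.05 in edgeR, 4 as higher and 5 as lower in shPRMT6 (33.3%, against 18.6% of all genes tested). The median log2 fold change of the 27 was 0.03, and 18 did not pass. Without NC 1, NC 2, NC 3, shPRMT6 1, shPRMT6 2 or shPRMT6 3 the count was 5, 5, 3, 3, 2 and 2. It was 4 with every gene of at least 1 count kept, and 4 in each of 3 limma fits on log2 FPKM.

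TFPI2, a Kunitz-type inhibitor of plasmin and other serine proteases in the matrix, rose from 1196, 1210 and 1188 CPM to 2159, 2182 and 2131 CPM (log2 fold change 0.85, SE 0.0403, adjusted p = 0.000262, edgeR). Its call also held without each library in turn. LRP1, an endocytic receptor that clears complexes of activators and serpins, had 1322, 1822 and 1689 CPM in NC and 1145, 1180 and 1228 CPM in shPRMT6, without overlap, and fell by 0.44 on the log2 scale (SE 0.116, adjusted p = 0.0431, edgeR). The other 4 genes among the 6 largest changes past the threshold were expressed at low levels. The Ly6 and uPAR domain gene LYPD1 rose by 1.44 (adjusted p = 0.0436) and TNFRSF11B, the decoy receptor osteoprotegerin, by 1.45 (adjusted p = 0.0482), both on the log2 scale. KRT8, a keratin that can bind plasminogen at the surface of some cells, fell by 1.23 (adjusted p = 0.0295), and LYPD6, of the same family as LYPD1, fell by 0.68 (adjusted p = 0.0375). None of these 4 exceeded 8 CPM in any library. They and LRP1 each lost the call in 5 of the 6 fits that left out a library. Named after its values were seen, F12 had the largest change of the genes tested here. Its log2 fold change was -2.49, at no more than 0.751 CPM, and it did not pass (adjusted p = 0.121, edgeR). SORL1, at 1.26, did not pass either (adjusted p = 0.444).

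The remaining 3 of the 9 lay outside the naming rule and are named after their values were seen. They were the plasminogen receptor ENO1 (log2 fold change -0.36), CKAP4 (-0.19), and the coagulation inhibitor TFPI (0.38). ENO1 and CKAP4 also lost the call in 5 of the 6 fits that left out a library, CKAP4 in DESeq2 as well (adjusted p = 0.0991), and TFPI without shPRMT6 2 (adjusted p = 0.0504, edgeR). The most abundant genes that did not pass were CTSB, encoding cathepsin B, and F3, encoding tissue factor. CTSB had 719, 672 and 330 CPM in NC and 903, 802 and 905 CPM in shPRMT6 (adjusted p = 0.184, edgeR), with NC 3 apart from the other NC libraries. Its log2 fold change was 0.60, and 0.32 without NC 3. F3 had a log2 fold change of -0.11 (SE 0.0431, adjusted p = 0.126).

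**Figure D4:**
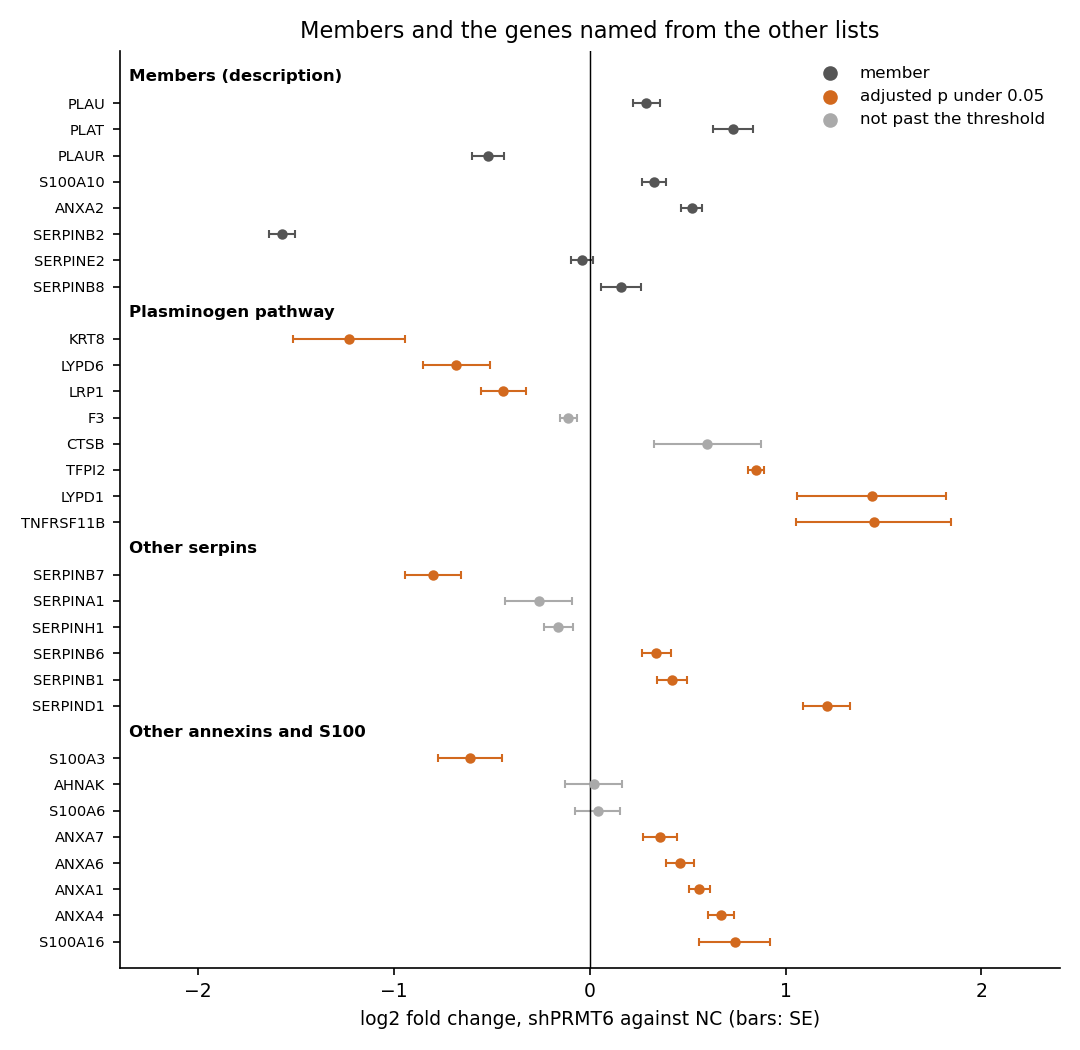
Log2 fold change of shPRMT6 against NC with its SE for the 8 genes, given as a description, and for the genes named from the other lists, coloured by an adjusted p under 0.05. SERPINB2 at -1.57 is the lowest of the 8 genes and PLAT at 0.73 the highest.

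Of the other serpins, 9 of 20 listed were tested. The threshold was passed by 3 as higher and 1 as lower (44.4%, against 18.6% of all genes tested). The median log2 fold change was 0.08, and 5 of the 9 lay above 0. SERPIND1, encoding heparin cofactor II, had 5.97, 6.67 and 6.20 CPM in NC and 15.7, 15.0 and 12.9 CPM in shPRMT6 and rose by 1.21 (SE 0.119, adjusted p = 0.00181, edgeR). SERPINB1, an inhibitor of neutrophil proteases, rose by 0.42 (adjusted p = 0.0125), and SERPINB6, an inhibitor of cathepsin G, by 0.34 (adjusted p = 0.0254). SERPINB7 was the gene that passed as lower. The collagen chaperone SERPINH1 (log2 fold change -0.16, adjusted p = 0.191) and SERPINA1 (-0.26, adjusted p = 0.353) did not pass. The value of SERPINA1 was -0.11 without NC 1 and -0.42 without NC 2. Without NC 3 or shPRMT6 1 the count fell to 2, and only SERPIND1 kept its call without each library in turn.

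Of the other annexins and S100 genes, 18 of 27 listed were tested. The threshold was passed by 5 as higher and 1 as lower (33.3%, against 18.6% of all genes tested). The median log2 fold change was 0.11, and 11 of the 18 lay above 0. ANXA1, a phospholipid-binding relative of ANXA2, rose from 1124, 1059 and 1016 CPM to 1531, 1613 and 1582 CPM (log2 fold change 0.56, SE 0.0543, adjusted p = 0.00168, edgeR). ANXA4 rose by 0.67 (adjusted p = 0.00187), ANXA6 by 0.46 (adjusted p = 0.00757) and ANXA7 by 0.36 (adjusted p = 0.0332). S100A16 rose by 0.74 (adjusted p = 0.0342) and S100A3 fell by 0.61 (adjusted p = 0.0460). AHNAK, a large scaffold that binds the complex of ANXA2 and S100A10, had a log2 fold change of 0.02 (SE 0.147, adjusted p = 0.95), and S100A6 of 0.04 (SE 0.115, adjusted p = 0.855). ANXA1, ANXA4 and ANXA6 kept their calls without each library in turn, and the count fell to 3 without NC 3 or without any single shPRMT6 library.

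The genes whose pattern was most like that of SERPINB2 were ranked by Pearson correlation of log2 CPM over the 6 libraries, among the 10050 other genes that averaged 3 or more in log2 CPM. They were MKNK2 (0.9997), a kinase of a translation initiation factor, CCNB2 (0.9994), a mitotic cyclin, and KIF18B (0.9991), a mitotic kinesin. The most opposite were EFNB2 (-0.9998), an ephrin ligand, COL5A1 (-0.9997), a fibrillar collagen chain, and GJB2 (-0.9997), a connexin. The 6 libraries fall into 2 groups, so such a value mostly reflects the difference between them. It exceeded 0.99 in size for 144 genes of the same sign and for 144 of the opposite sign.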

How the data were processed

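The 6 U87 libraries, 3 NC and 3 shPRMT6, were grouped by their labels. Unscaled read counts for each gene were deposited, as were FPKM values, scaled to gene length and library size, where 0.0001 stands for a gene with no counts. The submitters' processing notes name HISAT2, HTSeq 0.13.5 and GRCh38. The annotation, the use of strand and the FPKM tool are not given in the sources used here.

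The main test was edgeR's quasi-likelihood test (4.0.16, R 4.3.3) on these counts, with TMM scaling, filterByExpr and Benjamini-Hochberg adjustment over the 18106 genes left. CPM were computed from the counts after TMM scaling. An adjusted p under 0.05 counted as past the threshold. Each SE was the size of the log2 fold change divided by the square root of the test's F statistic, not a separate estimate. DESeq2 1.42.0, limma 3.58.1 on log2(FPKM + 1) and log2(FPKM + 0.1), other scalings and filters, a replicate block and each library left out in turn were alternatives. The programs were tested on simulated counts with 200 genes changed. They recovered 99.5%, 98.5% and 100% of the changed genes tested (edgeR, DESeq2, limma), with 18, 22 and 21 false calls. The simulation gave every gene the same dispersion, so its error rates do not carry over to these libraries. Gene positions, exon overlaps and shared 75-base stretches came from GENCODE 29, and promoter windows from RefSeq (GRCh38.p14).

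The 8 genes and all lists were chosen with earlier results of these data known. From each list, the text names up to 6 genes past the threshold with the largest change and the 2 most abundant that did not pass. For SERPINB2 it names the 3 highest and the 3 lowest correlates. The p-values measure only the spread between these libraries. Libraries of the same group differed beyond counting error (chi-square per degree of freedom 53.0 to 86.3). The main fit had no block, since the study's methods give no model with one. Same-numbered NC and shPRMT6 libraries did not deviate together in a later check (correlations -0.0301 to -0.0171). The values of 1 gene of the pathway list are not reported here, and its counts leave that gene out. The proteome data were not analysed here.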

Additional observations from a re-analysis of the deposited data

How the results depend on the processing

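Over all genes tested, the count past the threshold was 1858 with the replicate block, 1755 to 3183 with a library left out, and 1072 at the threshold of the study's methods, against 3362. Of the 8 genes, 5 remained past it with the block, which PLAU lost, 4 to 6 with a library left out, and 1 at the study's threshold. No gene of the 8 changed direction under any alternative, and PLAT moved to 0.56 in limma on log2(FPKM + 1), with or without the filter, where the pseudocount shrinks low genes by construction. The pathway count of 9 became 2 with the block (TFPI2, TFPI), 4 with at least 1 count in any library and 2 to 5 with a library left out. It was 4 in each of the 3 limma fits, of 17 genes tested with the FPKM filter and 33 without. It was 4 at the study's threshold, where F12 was counted though it was not among the 9. For the other serpins the count of 4 became 2 to 3 with a library left out and 1 at the study's threshold. For the other annexins and S100 genes the count of 6 became 3 in limma without a filter and 3 to 5 with a library left out. At the study's threshold it was 0 by edgeR, although 8 had an unadjusted p under 0.05 and DESeq2 gave 7 past an adjusted p of 0.05. The PRMT6 value was -0.88 with the block (adjusted p = 0.0803, edgeR), -0.47 in limma without a filter (adjusted p = 0.0578), and -1.0 to -0.73 with a library left out. AHNAK ran from -0.13 (without NC 1) to 0.18 (without NC 2), with -0.01 without shPRMT6 3, and S100A6 from -0.06 (without NC 2) to 0.18 (without NC 3), with -0.00 without NC 1, so the direction of these small values depended on single libraries. Same-numbered libraries correlated at -0.0301 to -0.0171 over all genes tested, and why single genes lost a call under the block was not tested. The FPKM filter removed KRT8, LYPD1, LYPD6 and TNFRSF11B before testing. Other causes of these changes were not tested. KRT8, LYPD1, LYPD6 and TNFRSF11B had at most 498 counts per library, and the part of depth in their lost calls was not tested.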
